A study of Homo sapiens with 6 samples.

Results

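The 8 genes described here mark the alveolar epithelium of the lung or the developing foregut from which it forms: CAV1, CAV2, LPCAT1, ABCA3, FOXA1, FOXA2, GATA6 and SFTPB. They were taken by name from the 29476 genes measured, and each has 1 row there. Expression came from RNA sequencing of A549, an established human lung adenocarcinoma line, grown in RPMI-1640 and transfected with Lipofectamine 3000. The 3 si-NC libraries, numbered 4, 5 and 6, come from cells given a negative control siRNA, and the 3 si-NORAD libraries with the same numbers from cells given an siRNA against NORAD, a long noncoding RNA. Both groups thus share the line, the reagent and an siRNA, neither holds untransfected cells, and all libraries represent 1 cell line. The labels do not say that the libraries came from separate cultures, so a p-value here measures only how these libraries scatter, and that scatter may be technical.

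The gas-exchange surface of the lung is lined by thin type 1 cells and by type 2 cells that make surfactant. Type 1 cells are rich in caveolae, membrane pits whose coat is built from caveolin 1 (CAV1) and caveolin 2 (CAV2). Type 2 cells make the lipid of surfactant with enzymes such as LPCAT1, load it into lamellar bodies through the transporter ABCA3, and secrete it with surfactant proteins such as SFTPB. The forkhead factors FOXA1 and FOXA2, the zinc finger factor GATA6 and the homeobox factor NKX2-1 act in lung development and at the promoters of surfactant genes. A549 was long used as a model of the type 2 cell.

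The promoters of 3 members hold a word that forkhead factors are known to recognise, and they are shown because SFTPB, a textbook target of these factors, was nearly silent here while FOXA2 was abundant. RefSeq promoters (GRCh38.p14, 250 bases before to 50 bases after an annotated start) were found for 7 of the 8 members, in 11 entries. FOXA2 had no entry. Each was searched on both strands for the forkhead word TGTTTAC and its relatives, the word TGTTTGC, then the word TGTTTAT and last the word TGTTTGT, which as a set 15.1% of 35116 promoters of 300 bases hold, and for the GATA word AGATAA or the related TGATAA, which 16.3% hold. The forkhead words occurred once each in 1 of the 2 SFTPB entries, in FOXA1 and in GATA6, and the GATA words in none of the 11 entries. Capitals mark the forkhead word, read on the gene's own strand. It begins 83 bases before the start in SFTPB (chr2:85668150-85668449, minus strand), 235 bases before it in FOXA1 (chr14:37595200-37595499, minus strand) and 115 bases before it in GATA6 (chr18:22169339-22169638, plus strand).
SFTPB: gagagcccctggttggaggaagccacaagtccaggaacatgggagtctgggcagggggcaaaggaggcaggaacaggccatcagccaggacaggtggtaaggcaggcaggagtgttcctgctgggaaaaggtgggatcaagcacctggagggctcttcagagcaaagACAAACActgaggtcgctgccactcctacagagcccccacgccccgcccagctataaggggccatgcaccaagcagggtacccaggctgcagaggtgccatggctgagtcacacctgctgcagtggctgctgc
FOXA1: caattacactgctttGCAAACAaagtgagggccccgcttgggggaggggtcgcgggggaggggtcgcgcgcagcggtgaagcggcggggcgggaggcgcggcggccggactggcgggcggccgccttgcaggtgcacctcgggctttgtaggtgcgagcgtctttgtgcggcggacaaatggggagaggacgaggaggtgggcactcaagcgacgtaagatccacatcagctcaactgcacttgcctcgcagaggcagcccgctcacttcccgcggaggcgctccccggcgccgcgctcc
GATA6: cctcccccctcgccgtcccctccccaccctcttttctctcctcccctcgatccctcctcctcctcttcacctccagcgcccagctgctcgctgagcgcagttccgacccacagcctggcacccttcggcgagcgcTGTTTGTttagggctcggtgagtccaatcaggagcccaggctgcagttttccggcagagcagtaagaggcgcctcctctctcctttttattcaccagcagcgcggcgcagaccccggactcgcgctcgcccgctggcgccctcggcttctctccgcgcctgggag
A match describes letters in the window and is not evidence of binding.

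A549 kept the caveolin genes, LPCAT1 and FOXA2 at high levels, ABCA3 at a lower one, FOXA1 and GATA6 at low levels, and almost no SFTPB. Levels are given in FPKM, fragments per kilobase of gene length scaled by library depth, as the authors deposited them, so that genes of different length can be set side by side. CAV1 was highest by far, at 206 ± 17.2 FPKM (mean and SD over the 6 libraries) and rank 148 of 29476 genes. FOXA2 followed at 35.0 ± 0.796 FPKM, LPCAT1 at 26.4 ± 2.26, CAV2 at 22.2 ± 1.61 and ABCA3 at 7.08 ± 1.09 FPKM. GATA6 was at 1.79 ± 0.202 FPKM and FOXA1 at 1.34 ± 0.236 FPKM, near the level of 1 FPKM that 10944 of the 29476 genes reached in every library. In this order the ranges of LPCAT1 and CAV2 over the libraries overlapped, as did those of GATA6 and FOXA1. Those of the other neighbours did not. Within every single library GATA6 was above FOXA1, and LPCAT1 was above CAV2 in all but si-NC 5.

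**Figure D1:**
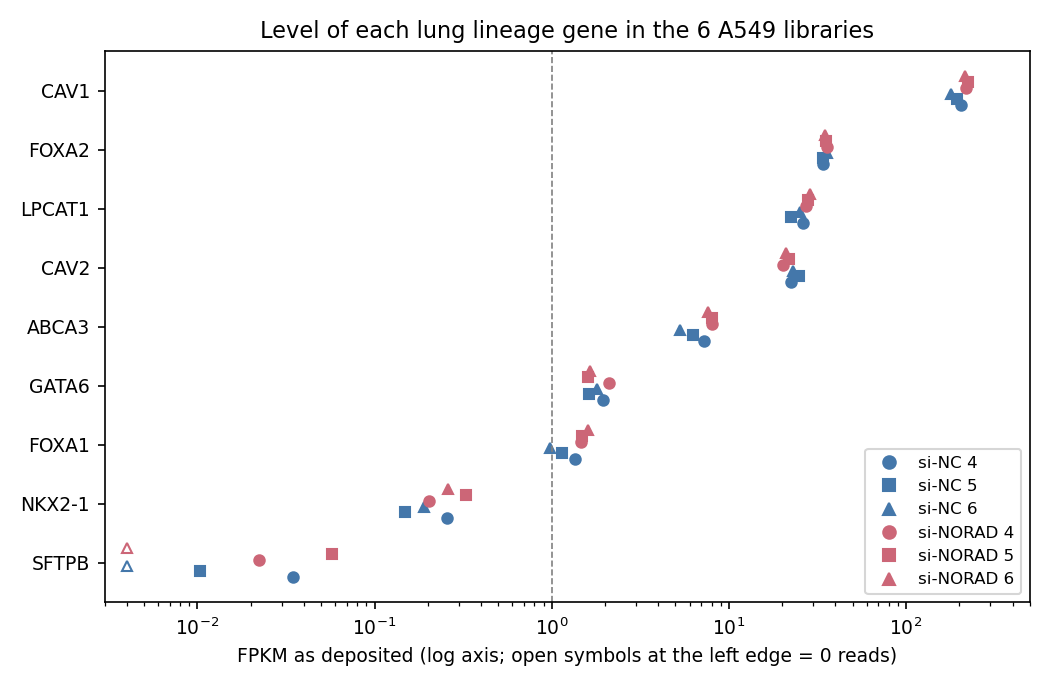
Level in FPKM (log axis) of the 8 genes and NKX2-1 in each library, with blue for si-NC, red for si-NORAD and a dashed line at 1 FPKM. CAV1 lies at 179 FPKM or more in every library, and SFTPB at 0.0574 FPKM or less, with 0 reads in si-NC 6 and si-NORAD 6.

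SFTPB (ENSG00000168878, chr2:85657314-85668741 in GRCh38, minus strand), which encodes the surfactant protein needed to spread lipid at the air surface, had 3, 1 and 0 reads with the control siRNA (libraries 4, 5 and 6) and, in that order, 3, 5 and 0 reads with si-NORAD. That is 12 reads in all, spread over both groups, and SFTPB was the 1 member that did not pass the low-count filter. A library with 0 reads allows up to 0.138 CPM (counts scaled to library size, here without TMM) in si-NC 6 and 0.155 in si-NORAD 6 (3 reads of the total, counting error only). The exact 95% binomial interval of the highest library, si-NORAD 5, was 0.0766 to 0.551 CPM. No difference between the groups was detectable for SFTPB at this depth.

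Some other genes of type 2 cells were as low, and others lay between SFTPB and the abundant members. Of 20 genes listed for type 2 cells and surfactant, 17 were measured (had values) and 6 reached 1 FPKM in every library: LPCAT1, ETV5, ABCA3, CEBPA, MUC1 and CTSH. None of the 29476 genes had a count of 0 in every library. Listed genes without values, here SFTPA1, SFTPD and SLC6A14, may thus have had no reads, which was not tested. The surfactant gene SFTPA2 lay at 0 to 0.0192 FPKM and SFTPC at 0.0148 to 0.105 FPKM. The phosphate transporter gene SLC34A2 lay at 0 to 0.00842 FPKM. SFTPA2, SFTPB, SLC34A2, PGC, SFTA2 and PIGR were under 0.1 FPKM in every library. NAPSA, a type 2 cell protease used to type lung adenocarcinoma, was between these extremes at 0.451 to 0.949 FPKM. So were LAMP3 (0.434 to 0.704 FPKM) and HHIP (0.649 to 0.910 FPKM). The lipid genes LPCAT1 and ABCA3 were thus expressed, while the measured surfactant protein genes SFTPA2, SFTPB and SFTPC lay near 0. No type 2 cells were measured for comparison.

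NKX2-1, the transcription factor that defines lung epithelium, was at 0.148 to 0.328 FPKM, with 11 to 22 reads per library. Of the 24 lung and foregut transcription factors listed, all were measured and 14 reached 1 FPKM in every library. FOXA2, the growth regulator ID2 (33.1 FPKM) and the T-box factor TBX3 (20.5 FPKM) were the most abundant. The related forkhead factor FOXA3 was at 0.717 FPKM, so that FOXA2 carried most of the FOXA transcript. Within single libraries FOXA2 was 21.6 to 36.3 times as abundant as FOXA1 per length.

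Type 1 genes were mixed in the same way. Of 16 listed, 14 were measured and 7 reached 1 FPKM in every library, among them CAV1, CAV2 and the retinoic acid-induced receptor gene GPRC5A (31.8 FPKM). AGER, whose protein is a standard type 1 marker, was at 1.31 to 1.84 FPKM. The podoplanin gene PDPN (0 to 0.0515 FPKM) and the water channel genes AQP5 (0 to 0.0751) and AQP4 (0 to 0.0213) were at or near 0. Airway genes were lower still, with 1 of 10 measured genes, the secretory cell factor SPDEF (3.23 FPKM), at 1 FPKM in every library. Of the gut and liver list, 4 of 17 reached it, including the fibrinogen genes FGB (4.77 FPKM) and FGA (3.89 FPKM), and the hepatic factor HNF4A (2.66 FPKM).

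The libraries had the profile of A549. The line's abundant genes were high, with ALDH1A1 at 1624 FPKM, AKR1B10 at 926 and KRT7 at 479. All 9 tested genes of that list had log2 fold changes below 0 in edgeR (median -0.23, 2 without overlap, 1 at an unadjusted p under 0.05), but against si-NC 4 alone 7 of the 9 were higher in si-NORAD. Of all tested genes 12.7% were lower without overlap and 21.6% were at an unadjusted p under 0.05 in edgeR. Of the 9 genes of the A549 list, edgeR, DESeq2 and limma-voom called 0. edgeR without the low-count filter called 3 as lower, where 6.56% of all genes were called. edgeR without si-NC 4 called 8 as lower, where 39.3% of all tested genes were called. The leukocyte gene PTPRC (at most 0.00564 FPKM) was near 0, although CD14 was at 3.53 FPKM. The 6 endothelial genes summed to 0.0714 to 0.112 FPKM in si-NC and 0.0604 to 0.104 in si-NORAD. The fibroblast list, of which 6 of 7 genes were measured, summed to 1.34 to 1.72 FPKM in si-NC and 1.78 to 1.96 in si-NORAD, most of it COL1A1 (0.934) and LUM (0.713). These sums did not overlap between the groups, and their part in the results below was not tested. The collagen gene COL1A2 was at 0 to 0.00413 FPKM. Summed levels of the retina list, measured because retina is named in the labelled extraction protocol, were 0.587 to 0.756 and 0.598 to 0.713 FPKM. Over the tested genes, log2 CPM of si-NC 4 correlated at 0.996 to 0.997 with the si-NORAD libraries and at 0.992 and 0.986 with si-NC 5 and si-NC 6, so si-NC 4 stood nearer to the other group than to its own. Total counts ran from 19332334 to 32760606 per library. NORAD itself stood at 550, 461 and 423 CPM (from here on with TMM scaling) with the control siRNA (libraries 4, 5 and 6) and, in that order, at 359, 372 and 400 CPM with si-NORAD. Its log2 fold change was -0.34 (SE 0.11, edgeR adjusted p = 0.196), with groups that did not overlap in CPM but did in FPKM. NORAD passed in edgeR without the low-count filter (-0.35, adjusted p = 0.0109) and without si-NC 4 (-0.23, adjusted p = 0.00757), the settings that called 6.56% and 39.3% of genes.

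Among the members in si-NORAD, ABCA3 and FOXA1 had the highest values relative to the control siRNA and CAV2 the lowest, and none of the 7 tested members passed. In edgeR's quasi-likelihood test with Benjamini-Hochberg adjustment over 15515 genes, 0 members were called at an adjusted p under 0.05, against 1 gene of all tested (0.00645%). At an unadjusted p under 0.05 there were 3 members, ABCA3, CAV2 and FOXA1, where 21.6% of all tested genes were. DESeq2 called 0 members against 3.57% of the genes it adjusted, and its independent filtering gave FOXA1 no adjusted p. limma-voom called 0 members too, and edgeR without the low-count filter called 0 of the 8 against 6.56% of all genes. The groups did not overlap in CPM for 4 members with higher values in si-NORAD (CAV1, LPCAT1, ABCA3 and FOXA1), where 12.7% of all tested genes were higher without overlap, and for 1 with lower values (CAV2), where 12.7% were lower. The median log2 fold change was 0.13 over the 7 members and 0.00553 over all tested genes. Since these members were chosen with earlier results of these data known, the counts describe them and test nothing.

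**Figure D2:**
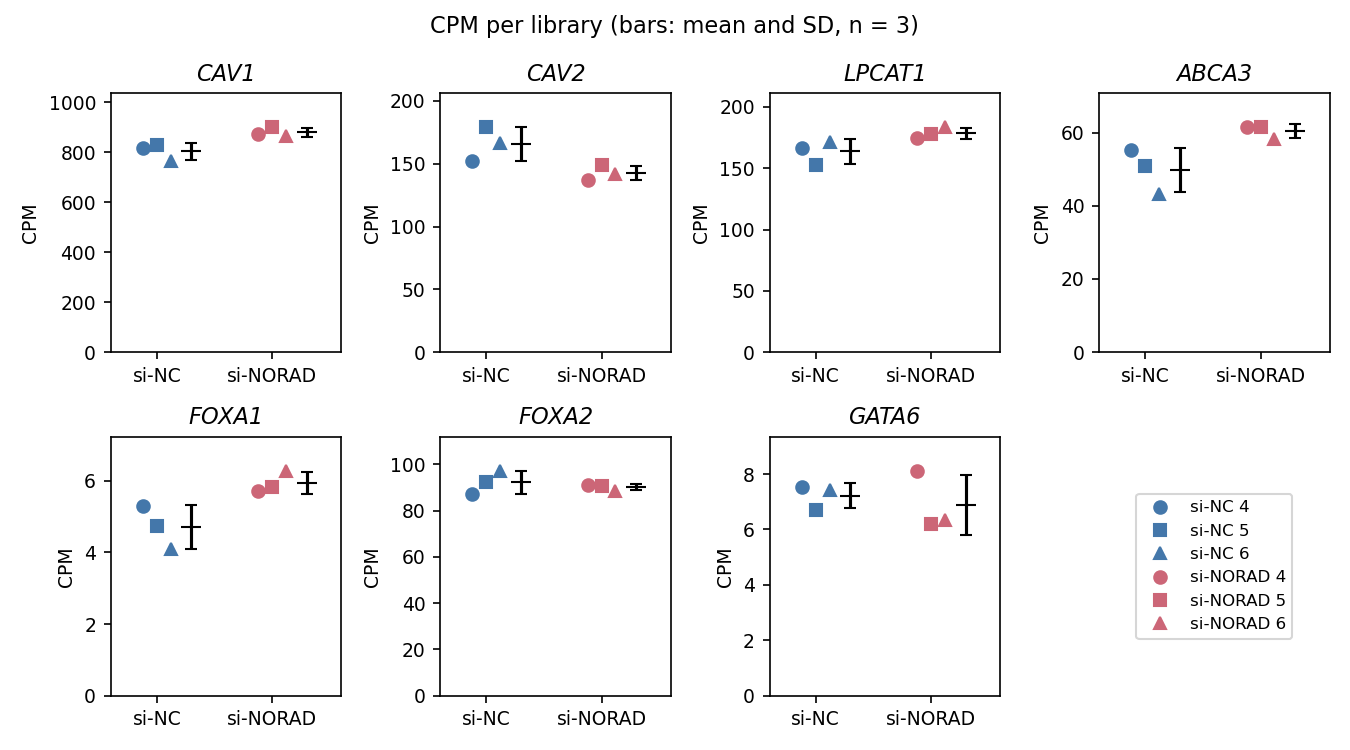
CPM of the 7 tested genes in each library (axes start at 0), with 1 symbol per replicate number and bars for the mean and SD of 3 libraries. Red si-NORAD points lie above all blue si-NC points for CAV1, LPCAT1, ABCA3 and FOXA1 and below them for CAV2, by margins that are small beside the level.

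CAV1 and CAV2, the caveolin genes, are neighbours on chromosome 7, and their values differed in opposite directions. CAV1 (ENSG00000105974, chr7:116524785-116561184 in GRCh38, plus strand) stood at 818, 830 and 764 CPM with the control siRNA (libraries 4, 5 and 6) and, in that order, at 875, 901 and 867 CPM with si-NORAD. Every si-NORAD library was above every si-NC library, with si-NC 6 the lowest. The means were 804 ± 34.9 and 881 ± 17.8 CPM (SD, n = 3), a log2 fold change of 0.13 (SE 0.08, 95% interval -0.05 to 0.31, edgeR adjusted p = 0.353). CAV2 (ENSG00000105971, chr7:116287380-116508541, plus strand) stood at 152, 179 and 166 CPM with the control siRNA (libraries 4, 5 and 6) and, in that order, at 137, 149 and 142 CPM with si-NORAD. Here all si-NORAD values lay below all si-NC values, and si-NC 4 was the nearest to them. The means were 166 ± 13.5 and 143 ± 5.76 CPM (SD, n = 3), a log2 fold change of -0.22 (SE 0.08, interval -0.41 to -0.03, edgeR adjusted p = 0.207). AC002066.1, an antisense gene at 0.788 FPKM, overlaps CAV2, and no source used here gives the strand setting of the counting, so its reads and those of CAV2 may not be told apart.

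The ratio of CAV1 to CAV2, which does not depend on how libraries are scaled, was 9.13, 7.87 and 7.79 with the control siRNA (libraries 4, 5 and 6, ratio of FPKM) and, in that order, 10.8, 10.3 and 10.3 with si-NORAD. The groups did not overlap, with si-NC 4 between the other si-NC libraries and si-NORAD. The means were 8.26 ± 0.749 and 10.5 ± 0.292 (SD, n = 3), which differ by 0.35 on the log2 scale. This ratio was examined after the values of both genes were seen, so it has no test. FOXA2 over FOXA1 also separated the groups, at 25.2, 29.7 and 36.3 with the control siRNA against 24.4, 23.7 and 21.6 with si-NORAD, with si-NC 4 close to si-NORAD 4.

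**Figure D3:**
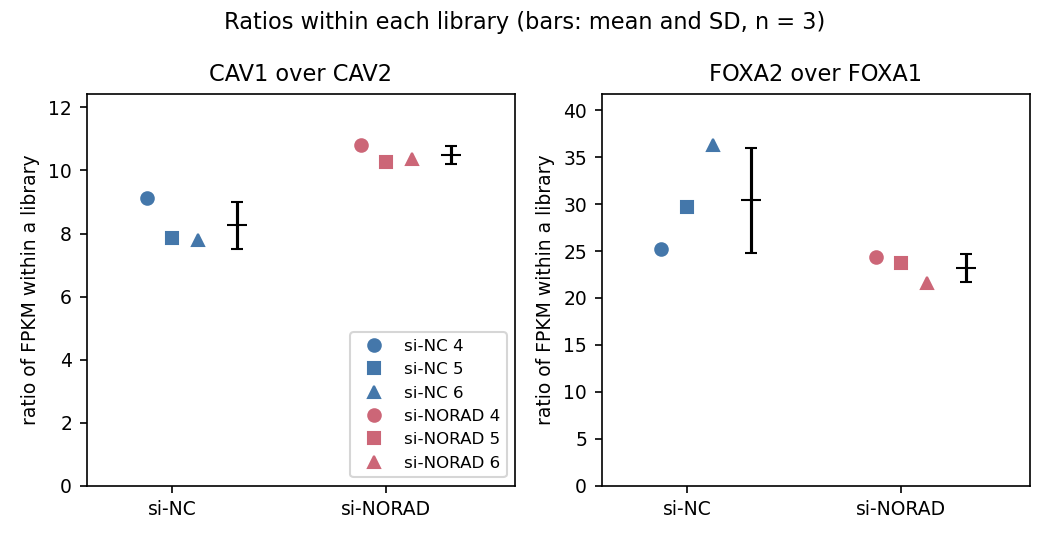
Ratio of FPKM within each library (axes start at 0) of CAV1 to CAV2 and of FOXA2 to FOXA1. Bars give the mean and SD of 3 libraries, and ratios whose groups overlapped are not drawn. The CAV1 to CAV2 ratio is 7.79 to 9.13 in si-NC and 10.3 to 10.8 in si-NORAD, and si-NC 4 is the si-NC library nearest to si-NORAD in both panels.

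The other genes listed with the caveola coat, some of which are not coat proteins, had values in both directions. Of the 8 listed, all measured, 7 were tested, with 5 values higher and 2 lower in si-NORAD and a median log2 fold change of 0.05. edgeR called 0 of them, and 2 were at an unadjusted p under 0.05, where 21.6% of all tested genes were. CAVIN1, the cavin that caveolae cannot form without, was nearly as abundant as CAV1 per length (177 FPKM) and had a log2 fold change of 0.05. CAVIN2, at 24.0 FPKM, had -0.02, and the membrane ATPase EHD2, at 54.5 FPKM, had 0.20. The muscle caveolin CAV3 was at 0 to 0.0652 FPKM. The receptor gene ROR1, not itself a coat gene, was the 1 listed gene that DESeq2 called, as higher. It was also called by edgeR with no low-count filter (log2 fold change 0.50 in edgeR), and was named after its value was seen. These settings called 3.57% and 6.56% of genes.

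LPCAT1 and ABCA3, which act on surfactant lipid, both had higher values in si-NORAD. LPCAT1 (ENSG00000153395, chr5:1456480-1523977, minus strand), an acyltransferase that makes the main surfactant phosphatidylcholine, stood at 167, 153 and 172 CPM with the control siRNA (libraries 4, 5 and 6) and, in that order, at 175, 178 and 183 CPM with si-NORAD. The groups did not overlap but lay close, with si-NC 6 just below si-NORAD 4. The means were 164 ± 9.86 and 179 ± 4.45 CPM (SD, n = 3), a log2 fold change of 0.13 (SE 0.08, interval -0.05 to 0.30, edgeR adjusted p = 0.348). ABCA3 (ENSG00000167972, chr16:2275881-2340746, minus strand), the lipid transporter of lamellar bodies, stood at 55.2, 51.0 and 43.3 CPM with the control siRNA (libraries 4, 5 and 6) and, in that order, at 61.5, 61.5 and 58.2 CPM with si-NORAD. The si-NORAD libraries were close together and above all si-NC libraries, among which si-NC 6 was low. The means were 49.8 ± 6.0 and 60.4 ± 1.87 CPM (SD, n = 3), a log2 fold change of 0.28 (SE 0.10, interval 0.06 to 0.50, edgeR adjusted p = 0.201).

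The wider lists of the same functions held no called gene in edgeR. Of all tested genes 21.6% were at an unadjusted p under 0.05 there. Of the 10 tested genes of type 2 cells and surfactant, 7 values were higher and 3 lower, for a median log2 fold change of 0.15, and 3 were at an unadjusted p under 0.05. LAMP3, a lamellar body membrane protein, had 0.48 and the mucin MUC1 0.38, both without overlap of the groups, while the factor ETV5 had -0.00242 and CEBPA -0.27. LAMP3, MUC1 and CEBPA were named after their values were seen. In this list 4 values were higher and 1 lower without overlap. Of all tested genes 12.7% were higher and 12.7% lower without overlap. Of the 14 tested genes of phosphatidylcholine synthesis and remodelling, 12 values were higher and 2 lower, for a median of 0.07 and 1 at an unadjusted p under 0.05. Their most abundant genes pointed in opposite directions: the desaturase SCD (90.7 FPKM) had 0.17 and PRDX6 (114 FPKM), a peroxiredoxin that also cleaves phospholipid, had -0.22. DESeq2 and limma-voom called 0 genes of either list. The type 1 list, with 10 tested genes, 5 higher and 5 lower, had a median of 0.04, with 3 at an unadjusted p under 0.05 and 0 called by edgeR, DESeq2 or limma-voom.

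**Figure D4:**
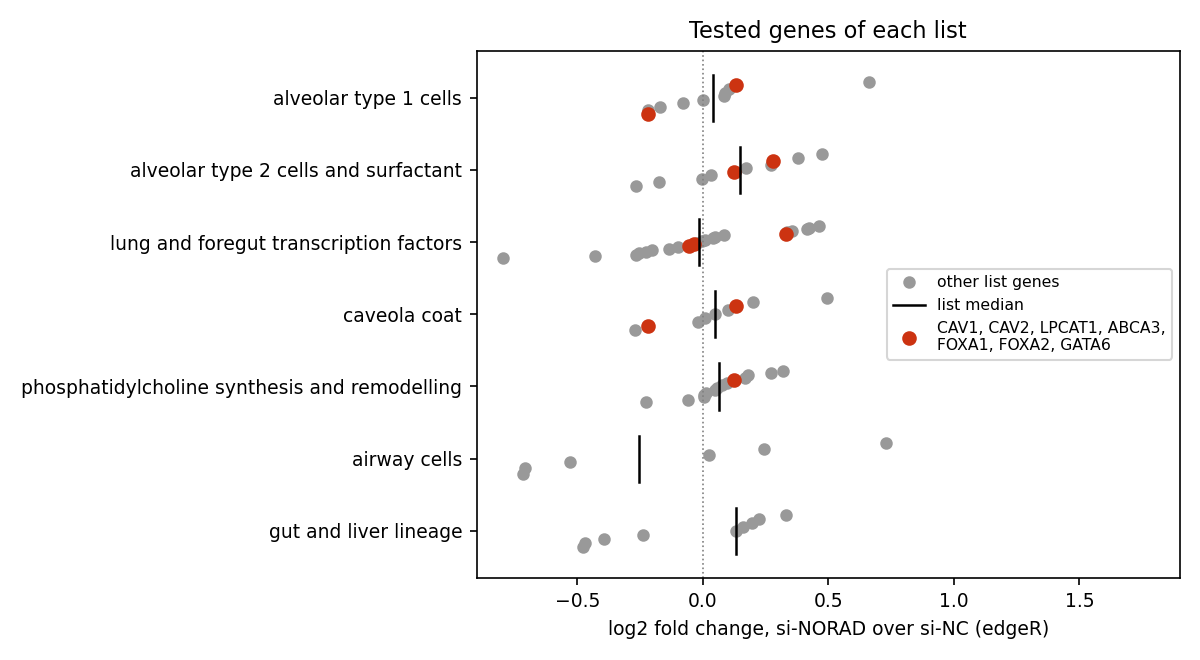
Log2 fold change (si-NORAD over si-NC, edgeR) of each tested gene in 7 lists, with the genes described here in red, other genes in grey and the list median as a line. Genes of each list lie on both sides of 0, from -0.79 for FOXA3 to 0.73 for MUC5AC.

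Among the transcription factors, FOXA1 had higher values in si-NORAD, while FOXA2 and GATA6 overlapped between the groups. FOXA1 (ENSG00000129514, chr14:37589984-37596059, minus strand), which opens chromatin for other factors, stood at 5.30, 4.75 and 4.09 CPM with the control siRNA (libraries 4, 5 and 6) and, in that order, at 5.72, 5.82 and 6.28 CPM with si-NORAD, with 85 to 191 reads per library. The groups did not overlap, with si-NC 4 close to si-NORAD 4. The means were 4.71 ± 0.603 and 5.94 ± 0.30 CPM (SD, n = 3), a log2 fold change of 0.33 (SE 0.14, interval 0.02 to 0.65, edgeR adjusted p = 0.222).

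FOXA2 (ENSG00000125798, chr20:22581005-22585455, minus strand), its close relative that acts in foregut and alveolar development, stood at 87.3, 92.2 and 97.2 CPM with the control siRNA (libraries 4, 5 and 6) and, in that order, at 91.2, 90.4 and 88.5 CPM with si-NORAD. All si-NORAD libraries lay within the range of si-NC. The log2 fold change was -0.03 (SE 0.08, interval -0.20 to 0.13, edgeR adjusted p = 0.803). Its direction turned on the FPKM scale (0.03) and after removal of a gene length trend (0.11), so no direction is given. GATA6 (ENSG00000141448, chr18:22169443-22202528, plus strand), a factor of foregut endoderm, stood at 7.54, 6.70 and 7.41 CPM with the control siRNA (libraries 4, 5 and 6) and, in that order, at 8.12, 6.19 and 6.33 CPM with si-NORAD. The highest and the lowest library were both si-NORAD. Its log2 fold change was -0.06 (SE 0.14, interval -0.38 to 0.26, edgeR adjusted p = 0.830), with 125 to 271 reads per library, and it turned without si-NORAD 5 (0.01).

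Of the 22 tested lung and foregut transcription factors, edgeR called 0, and 7 were at an unadjusted p under 0.05, where 21.6% of all tested genes were. In this list 10 values were higher and 12 lower, for a median of -0.01. TBX3, with a log2 fold change of 0.35, and ID2, with -0.43, lay in opposite directions without overlap of the groups. In the whole list 5 values were higher and 4 lower without overlap, where 12.7% of all tested genes were higher and 12.7% lower. DESeq2 called ID2 as lower and the forkhead factor FOXP4 (0.42 in edgeR) as higher, against 3.57% of the genes it adjusted, and limma-voom called 0. Without the low-count filter edgeR called 4, FOXA3, FOXP4, ID2 and TBX3, against 6.56% of all genes. FOXP4 and FOXA3 (-0.79) were named after their values were seen. NKX2-1 had 0.33, with overlapping groups and edgeR adjusted p = 0.545.

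The si-NC libraries differed among themselves, and this bears on the size of each difference. Library si-NC 4 lay nearer to the si-NORAD mean than libraries 5 and 6 of that group did on average for CAV1, CAV2, LPCAT1, ABCA3 and FOXA1. By single libraries this held for CAV2, ABCA3 and FOXA1, whereas si-NC 5 was nearest for CAV1 and si-NC 6 for LPCAT1. On the log2 scale si-NC 4 was 0.13 below the si-NORAD mean for ABCA3 and the other si-NC libraries were on average 0.36 below it. The same distances were 0.15 and 0.39 for FOXA1, 0.11 and 0.14 for CAV1 and 0.10 and 0.14 for LPCAT1. CAV2 was 0.09 above si-NORAD in si-NC 4 and 0.28 above it in the mean of the others. The sign was the same on both sides of this split for CAV1, CAV2, LPCAT1, ABCA3 and FOXA1, as it must be where groups do not overlap. FOXA2 was 0.04 below si-NORAD in si-NC 4 and 0.07 above it in the others. For GATA6 si-NC 4 was the farther, 0.13 above si-NORAD against 0.04 above it in the others.

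Leaving out si-NC 4 brought 4 members past the threshold in edgeR: CAV1 (log2 fold change 0.14, adjusted p = 0.0445), CAV2 (-0.28, adjusted p = 0.00230), ABCA3 (0.36, adjusted p = 0.00271) and FOXA1 (0.42, adjusted p = 0.0392). In that fit 39.3% of 15916 genes were called, so a call there is common. LPCAT1 did not pass (0.14, adjusted p = 0.0917), nor did FOXA2 or GATA6. Against si-NC 4 alone the values were -0.09 for CAV2, 0.13 for ABCA3, 0.16 for FOXA1, 0.11 for CAV1 and 0.10 for LPCAT1. Without si-NC 4 calls were also more frequent in the lists, members included. The numbers called are given here with the number tested in the fit on all 6 libraries. They were 3 of 10 for type 2 cells, 5 of 10 for type 1 cells and 8 of 22 for transcription factors. The caveola list had 5 of 9, phosphatidylcholine synthesis 6 of 14, airway cells 3 of 6, and gut and liver 2 of 9. The A549 list had 8 of 9, these all lower. Over all genes the share without si-NC 4 was 39.3%, so these counts describe the lists and test nothing.

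**Figure D5:**
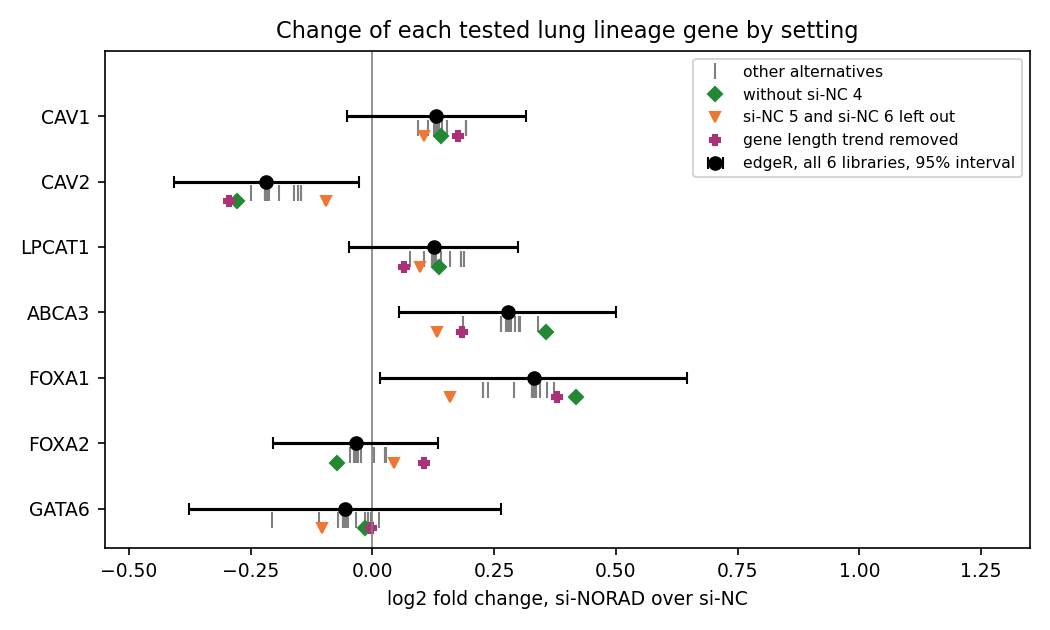
Log2 fold change of each tested gene, with the 95% interval of the edgeR fit on all 6 libraries in black and the values under other settings below it. The values of CAV1, CAV2, LPCAT1, ABCA3 and FOXA1, whose groups did not overlap, stay on 1 side of 0 in all 19 alternatives, which reuse the same libraries. Those of FOXA2 and GATA6 cross it.

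Genes near the members had values in both directions. Within 500 kb of the 8 members lay 92 other tested genes, of which edgeR called 0, with a median log2 fold change of -0.03. Of the 92, 23 were at an unadjusted p under 0.05, where 21.6% of all tested genes were. Without overlap 11 were higher and 13 lower, where 12.7% of all tested genes were higher and 12.7% lower. These counts are near the shares over all genes. Around the caveolins, the focal adhesion gene TES, 28597 bases from CAV2, had -0.14 and the receptor gene MET, 111206 bases from CAV1, had 0.15. AC002066.1 had -0.33 with overlapping groups. MIPOL1, 37623 bases from FOXA1 and the 1 tested gene within 100 kb of it, had 0.31 without overlap, close to FOXA1's own value. Around ABCA3, 24 tested neighbours were higher and 28 lower, 6 and 10 of these without overlap. RNPS1, 7469 bases from ABCA3, had -0.04. Also within 100 kb of it, PGP (-0.35) and MLST8 (-0.35) were lower without overlap and TRAF7 (0.11) higher without overlap. USP39, 8032 bases from SFTPB, was at 32.6 FPKM beside the nearly silent SFTPB, with -0.01. GATA6-AS1, which overlaps the start of GATA6 on the other strand, was at 0.0606 FPKM and was not tested.

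The genes whose profiles over the 6 libraries were most like those of the members, by the root mean square difference of centred log2 CPM over 10927 genes, were TAX1BP1 (0.0143) and TACC2 (0.0172) for CAV1 and SLC16A5 (0.0192) and MED25 (0.0234) for LPCAT1. For FOXA2 they were ALG3 (0.0133) and MAPK1IP1L (0.0143), and for GATA6 OLFM2 (0.0603) and ZCWPW1 (0.0676). Such likeness is common where a gene varies little: 297 genes lay within 0.05 of CAV1 and 492 within 0.05 of FOXA2, but 0 of GATA6.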

How the data were processed

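Whole-number read counts per gene, with no normalization, and FPKM values were deposited by the authors in 1 table of 29476 genes. FastQC, HISAT2 and HTSeq 0.6.1 with GRCh38 are named per the submitters' processing notes, and total RNA was depleted of ribosomal RNA and made into directional libraries per the labels' protocols. No source used here gives the strand setting or annotation. Gene lengths implied by count and FPKM were equal across libraries for 100% of values (tolerance 0.1%). All IDs are in GENCODE 29, the source of coordinates. At these depths 1 count is 0.0305 to 0.0517 CPM.

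The test was that of edgeR 4.0.16 under R 4.3.3 (filterByExpr, 15515 genes, TMM, robust quasi-likelihood F test, two-sided, no covariate, Benjamini-Hochberg over all tested genes, called at 0.05). Tested on simulated counts for this comparison (15305 genes), it recovered 64% of 100 genes changed 1.5-fold and 89% of 100 changed 2-fold. It made 5 false calls there. In the real libraries it called 1 of 15515 genes, TPM4 (log2 fold change 1.03). FOXA3 (-0.79), MUC5AC (0.73) and KRT15 (-0.71) were not called, each at an edgeR adjusted p of 0.196. Whether the simulated counts scatter like the real si-NC libraries was not tested. The recovery in the real libraries may thus be lower, and a gene not called may still differ. Alternatives were RLE and upper quartile scaling, other filters, DESeq2 1.42.0, limma-voom and limma 3.58.1 on log2 of FPKM plus 1 or 0.1 (filtered at an FPKM of 0.5 in 3 libraries, or unfiltered), non-robust estimation, a replicate block, removal of the gene length trend (loess, span 0.3) and leaving out libraries. Python 3.11.15, pandas 2.3.3, numpy 2.4.6, scipy 1.17.1 and matplotlib 3.10.9 did the rest.

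The members and lists were chosen with earlier results of these data known. Besides the members and NORAD, each list was to give its called genes or, with none, its 3 with the highest FPKM and genes under 0.1 FPKM, each member its tested neighbours within 100 kb, and CAV1, LPCAT1, FOXA2 and GATA6 the 2 most similar genes of at least 5 CPM. Not every gene this rule takes is reported, and other genes were named after their values were seen. TPM4, also in the rule, is the 1 gene called. Listed genes with no value here, such as SFTPA1, SFTPD and HOPX, were not analysed here. No gene with values had a count of 0 in every library, so the absent ones may have had no reads.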

Additional observations from a re-analysis of the deposited data

How the results depend on the processing

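Over 19 alternatives the log2 fold change kept its sign for CAV1 (0.09 to 0.19), CAV2 (-0.29 to -0.09), LPCAT1 (0.07 to 0.19), ABCA3 (0.13 to 0.36) and FOXA1 (0.16 to 0.42). For these genes the groups did not overlap in CPM or FPKM, and every alternative reuses the same libraries. Most alternatives could therefore hardly turn the sign, and its stability restates the lack of overlap. FOXA2 turned to 0.0269 on log2 of FPKM plus 1, with or without a filter, to 0.0276 with 0.1 added, and to 0.11 with the gene length trend removed. Against si-NC 4 alone, values were -0.0945 for CAV2, 0.13 for ABCA3, 0.16 for FOXA1, 0.0454 for FOXA2 and -0.55 for NORAD. NORAD passed in edgeR without the low-count filter (-0.35, adjusted p = 0.0109), where 6.56% of genes were called, and without si-NC 4 (-0.23, adjusted p = 0.00757), where 39.3% were. Against si-NC 4 alone only sizes are used, since 1 library gives no spread of its own group.

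Genes called among all tested numbered 1 in the fit with all 6 libraries, 1935 without the low-count filter, 382 by DESeq2, 3 on either FPKM scale with a filter, 2 with the replicate block and 6 with the length trend removed. Leaving out 1 library in turn gave 0 to 6251 genes and 0 to 4 members called, with log2 fold changes of 0.0944 to 0.15 for CAV1, -0.28 to -0.16 for CAV2, 0.08 to 0.16 for LPCAT1, 0.19 to 0.36 for ABCA3, 0.24 to 0.42 for FOXA1, -0.0730 to 0.00312 for FOXA2, -0.21 to 0.0127 for GATA6 and -0.42 to -0.23 for NORAD. FOXA2 turned without si-NC 6 (0.00312) and GATA6 without si-NORAD 5 (0.0127). The cause of these changes was not tested.

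Same-numbered libraries share only a number: their deviations correlated at -0.02, -0.00477 and -0.07 for numbers 4, 5 and 6, and not every library correlated best with its own number. With the replicate block no member was called, and log2 fold changes were 0.13 for CAV1, -0.21 for CAV2, 0.13 for LPCAT1, 0.28 for ABCA3, 0.33 for FOXA1, -0.03 for FOXA2 and -0.07 for GATA6. With 12 reads in 6 libraries, depth limits any statement on SFTPB.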
